A study of Bos taurus with 9 samples.

Results

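PTGS1, PTGS2, PTGES, PTGER2 and PTGFR encode enzymes and receptors of prostaglandin signalling, and they are described here across bovine marrow stromal cells and cartilage cells. All probe sets whose only gene symbol in the platform annotation was one of these 5 were taken, which gave 5 of 9155 named genes and 10 of the 24016 probe sets tested, 13292 of which had a single symbol. PTGS2 and PTGFR had 3 probe sets each, PTGS1 had 2, and PTGES and PTGER2 had 1 each. RNA was measured on 9 single-colour arrays, 1 per sample, in 3 groups of 3. The chondrocyte group at day 28 (chondrocytes_day28) held cells freshly isolated from calf articular cartilage and grown in agarose for 28 days. The day 28 MSC group (MSC_day28) held mesenchymal stem cells, the adherent stromal cells of bone marrow, kept for the same time in the same gel. Both had chemically defined medium with 10 ng/mL of TGF-beta3, a growth factor that drives cartilage formation. The day 0 MSC group (MSC_day0) held undifferentiated MSCs harvested right after embedding in agarose. Each group had 1 array from each of 3 calves aged 3 to 6 months, and the label numbers matched the donors across groups. No group was cultured without TGF-beta3, and no chondrocytes were taken at day 0, so time in culture, gel and growth factor cannot be told apart. Between chondrocytes_day28 and MSC_day0 the cell type differs too, and it cannot be told apart from the culture there.

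Prostaglandins are short-lived lipid signals made from arachidonic acid, which phospholipases free from membranes. The cyclooxygenases, PTGS1 (COX-1, steadily expressed in many tissues) and PTGS2 (COX-2, induced by cytokines and growth factors), turn it into the intermediate prostaglandin H2. Terminal synthases then make the separate prostaglandins, among them PTGES, the inducible microsomal enzyme that makes prostaglandin E2 and often acts together with PTGS2. Cells sense the products through G protein-coupled receptors: PTGER2 and PTGER4 raise cyclic AMP on binding prostaglandin E2, and PTGFR binds prostaglandin F2alpha and raises intracellular calcium. In cartilage, prostaglandin E2 is best known as a product of chondrocytes exposed to interleukin-1 and of osteoarthritic joints.

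Cartilage markers were higher in both day 28 groups than in day 0 MSCs. Of 8 chondrocyte markers 7 had a named probe set, and their mean log2 level per array lay between 11.25 and 11.40 in chondrocytes_day28, between 10.56 and 11.04 in MSC_day28 and between 5.11 and 5.51 in MSC_day0. Of the 7, CNMD (chondromodulin) alone was called between the day 28 groups, at 9.86 to 9.95 in chondrocytes_day28, against 5.46 to 6.99 in MSC_day28. Over all genes 8.35% were higher and 4.81% lower in that comparison. The 6 other markers were not called there, and the median difference of the 7 was 0.04. The marrow stromal list averaged 6.19 to 6.47, 5.97 to 6.50 and 7.06 to 8.07 in chondrocytes_day28, MSC_day28 and MSC_day0. Of its 8 genes, 3 fell in MSCs and none rose (21% and 13.5% over all genes). CXCL12 averaged 3.09, 3.96 and 8.03 in the same groups, and CD44 7.01, 7.53 and 9.75. VCAM1 was at 3.40, 7.46 and 3.69 in MSC_day0. NT5E, PDGFRA, ENG and THY1 averaged 10.79, 10.60, 8.87 and 6.25 in chondrocytes_day28 and 10.68, 10.29, 8.45 and 6.13 in MSC_day0. LEPR was low on all arrays, at 1.54 to 2.68. Replicate 3 of chondrocytes_day28 and replicate 3 of MSC_day28 had low bioC hybridisation controls, at 8.43 and 8.35 against 11.00 to 11.44 on the other 7 arrays. Both came from donor 3. The 3′ minus 5′ signal of 6 control transcripts, a measure of RNA integrity and priming, was 1.59 to 1.96 in chondrocytes_day28, 1.58 to 1.95 in MSC_day28 and 1.14 to 1.59 in MSC_day0. Its part in the results below was not tested.

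By their brightest sets the synthesis genes were higher in both day 28 groups than in day 0 MSCs, while the receptor PTGFR had the opposite pattern. In MSCs PTGS1, PTGS2 and PTGES rose over 28 days by 19.5-fold, 41.7-fold and 38.7-fold, and PTGFR fell by 3.91 on the log2 scale, each by the probe set of highest mean. Chondrocytes differed from day 28 MSCs in 1 of these genes, PTGS1, which was 1.98-fold lower in chondrocytes. PTGER2 was dim in every sample, at percentile 17.8 to 23.2 of the array in chondrocytes_day28 and 0.637 to 16.6 in MSC_day28, with MSC_day0 close to the chondrocytes. Values are the deposited log2 values, differences are followed by the standard error of the limma fit (n = 3 per group), and calls use a Benjamini-Hochberg adjusted p under 0.05 over all 24016 probe sets. Without both arrays of low hybridisation controls the MSC changes were 4.26 for PTGS1, 4.72 for PTGS2, 5.20 for PTGES and -3.87 for PTGFR, and all passed. The PTGS1 difference between the day 28 groups was then -1.04 (adjusted p = 0.0293). In bulk RNA, fewer cells of a type and less RNA per cell cannot be told apart.

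**Figure D1:**
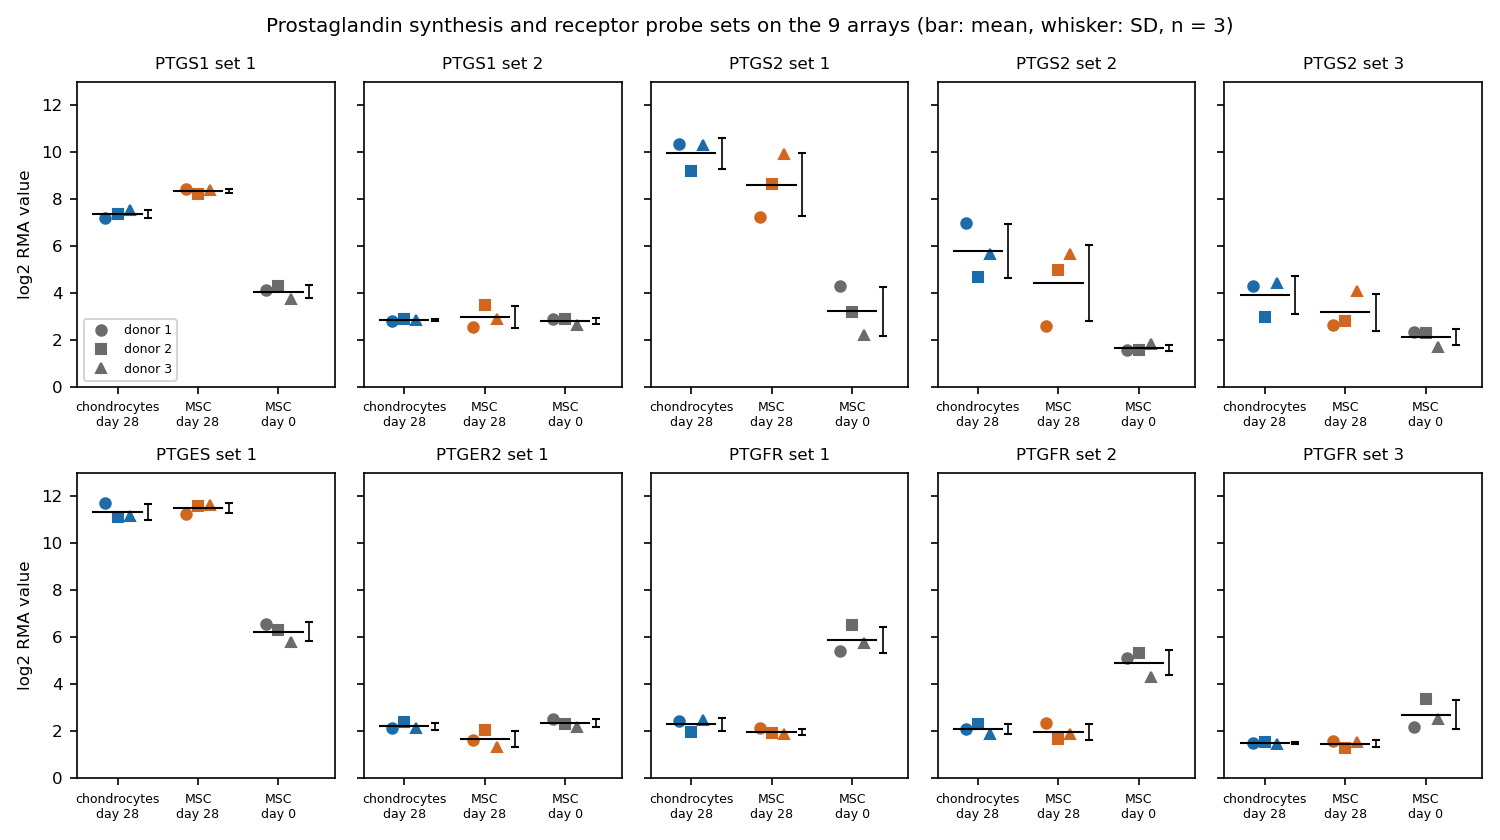
Deposited log2 values (vertical axis) of the 10 probe sets on the 9 arrays, grouped as chondrocytes_day28, MSC_day28 and MSC_day0, with donors by symbol, the mean as a line and the SD as a whisker (n = 3). Sets of a gene are numbered by falling mean level. PTGES lies above 11 on all 6 day 28 arrays and below 7 on the 3 day 0 arrays, PTGFR set 1 lies below 2.5 on all day 28 arrays, and PTGS2 has the widest spread between donors.

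PTGS2, the inducible cyclooxygenase, is given first by its set of highest mean (set 1). The log2 values of set 1 were 10.34, 9.19 and 10.31 in chondrocytes_day28 (donors 1, 2 and 3), 7.24, 8.65 and 9.93 in MSC_day28, and 4.29, 3.18 and 2.21 in MSC_day0. All day 28 arrays were above all day 0 arrays, and the chondrocyte and MSC ranges at day 28 overlapped. The rise in MSCs was 5.38 ± 0.70 (adjusted p = 0.000495), and it varied by donor: 2.95 in donor 1, 5.48 in donor 2 and 7.72 in donor 3. Donor 1 combined the highest day 0 value with the lowest day 28 MSC value. The rise ranged from 4.72 without replicate 3 of MSC_day28, 1 of the arrays with low hybridisation controls, to 6.06 without replicate 1 of that group, and passed in each case. Chondrocytes exceeded day 0 MSCs by 6.72 ± 0.70, which is 106-fold (adjusted p = 0.000149). The difference between chondrocytes_day28 and MSC_day28, 1.34 ± 0.70, did not pass (adjusted p = 0.293, 95% interval -0.25 to 2.93). It was 3.10 in donor 1 and 0.54 and 0.38 in donors 2 and 3, and without replicate 1 of MSC_day28 it was 0.66.

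The other PTGS2 sets were dimmer and gave the same order of group means, with smaller differences from day 0. Set 2 was at 6.98, 4.68 and 5.66 in chondrocytes_day28, 2.60, 4.99 and 5.65 in MSC_day28 and 1.57, 1.56 and 1.81 in MSC_day0. As with set 1, donor 1 gave the lowest day 28 MSC value. Its rise in MSCs, 2.76 ± 0.76 (adjusted p = 0.0226), lost its call when any array of MSC_day0, or replicate 2 or 3 of MSC_day28, was left out (adjusted p from 0.0521 to 0.0733). Without both arrays with low hybridisation controls it was 2.14 (adjusted p = 0.0951). Chondrocytes exceeded day 0 MSCs by 4.13 ± 0.76 in this set (adjusted p = 0.00328). Set 3 ranged from 2.96 to 4.44 in chondrocytes_day28, from 2.63 to 4.09 in MSC_day28 and from 1.71 to 2.31 in MSC_day0. Set 3 differed between chondrocytes and day 0 MSCs by 1.79 ± 0.47 (adjusted p = 0.0171). That call was lost without replicate 1 or 3 of chondrocytes_day28 or replicate 3 of MSC_day0 (0.0590 to 0.0658). In MSCs its change of 1.07 ± 0.47 did not pass (0.118). The mean of the PTGS2 sets rose by 3.07 ± 0.59 in MSCs (adjusted p = 0.00349 over genes).

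PTGS1, the cyclooxygenase that many tissues express steadily, had the tightest replicates of the synthesis genes at day 28. Set 1 had log2 values of 7.21, 7.35 and 7.51 in chondrocytes_day28, 8.41, 8.23 and 8.39 in MSC_day28 and 4.12, 4.29 and 3.76 in MSC_day0. The groups did not overlap, and day 28 MSCs were the highest. PTGS1 rose in MSCs by 4.29 ± 0.16 (adjusted p = 8.00e-07), by 4.29, 3.94 and 4.63 in donors 1, 2 and 3. Chondrocytes exceeded day 0 MSCs by 3.30 ± 0.16 (adjusted p = 2.37e-06). PTGS1 was the only one of the 5 genes called between the day 28 groups, with chondrocytes lower by 0.98 ± 0.16 (difference -0.98, adjusted p = 0.00587) and lower in each of the 3 donors. Its SD was 0.15 in chondrocytes_day28 and 0.10 in MSC_day28. Set 2 of PTGS1 lay between 2.54 and 3.50 on all 9 arrays and passed in no comparison, so the PTGS1 result rests on set 1. The mean of both sets passed in all 3 comparisons, at 2.23 for the rise in MSCs and -0.56 for chondrocytes minus day 28 MSCs (adjusted p = 0.0381 over genes). As set 2 changed little (0.17 and -0.13), this mean follows set 1 and is no separate support.

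PTGES, the inducible prostaglandin E synthase, was among the brightest probe sets at day 28. Its log2 values were 11.72, 11.12 and 11.18 in chondrocytes_day28, 11.27, 11.60 and 11.66 in MSC_day28 and 6.59, 6.32 and 5.80 in MSC_day0. On each array these placed it at percentile 97.7 to 98.9 of all probe sets in chondrocytes_day28, 98.1 to 98.8 in MSC_day28 and 57.1 to 63.7 in MSC_day0. PTGES rose in MSCs by 5.27 ± 0.24 (adjusted p = 2.09e-06), with rises of 4.68, 5.28 and 5.86 in the 3 donors. Chondrocytes exceeded day 0 MSCs by 5.11 ± 0.24, or 34.4-fold (adjusted p = 1.61e-06). The day 28 groups overlapped: chondrocytes minus MSCs was -0.17 ± 0.24 (adjusted p = 0.757), and the 95% interval of -0.71 to 0.37 leaves room for a difference of that size either way.

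PTGFR, the receptor for prostaglandin F2alpha, fell in MSCs in all 3 of its probe sets. Set 1 had log2 values of 2.45, 1.99 and 2.47 in chondrocytes_day28, 2.14, 1.93 and 1.90 in MSC_day28 and 5.43, 6.52 and 5.75 in MSC_day0. Day 0 arrays stood apart from both day 28 groups, which overlapped with each other. The fall in MSCs was 3.91 ± 0.27 (difference -3.91, adjusted p = 1.76e-05), and chondrocytes were below day 0 MSCs by 3.60 (difference -3.60 ± 0.27, adjusted p = 2.14e-05). Set 2 changed by -2.95 ± 0.28 (adjusted p = 8.71e-05) and set 3 by -1.23 ± 0.27 (0.00705) in MSCs, and both were also lower in chondrocytes than in day 0 MSCs, at -2.83 and -1.20. At day 28 set 1 was at percentile 14.4 to 24.2 of the array in chondrocytes_day28 and 12.8 to 17.4 in MSC_day28, which is near the bottom of the signal range. These falls may therefore be understated. Chondrocytes minus day 28 MSCs was 0.32 ± 0.27 for set 1 (adjusted p = 0.546, 95% interval -0.28 to 0.91), and 0.12 and 0.04 for sets 2 and 3, which did not pass.

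PTGER2, a receptor for prostaglandin E2 that acts through cyclic AMP, gave low values everywhere. It was at 2.15, 2.39 and 2.13 in chondrocytes_day28, 1.65, 2.05 and 1.34 in MSC_day28 and 2.52, 2.33 and 2.20 in MSC_day0. Day 28 MSCs lay below both other groups with no overlap, while chondrocytes and day 0 MSCs overlapped. Its change in MSCs of -0.67 ± 0.19 passed (adjusted p = 0.0263), but the call ended without replicate 1 or 3 of MSC_day28 and without replicate 1 or 2 of MSC_day0 (0.0612 to 0.0922). It also ended without both arrays of low hybridisation controls (0.0966), with centring on ribosomal protein genes (0.0553) and in a fit of both MSC groups alone (0.0560). Chondrocytes minus day 28 MSCs, 0.55 ± 0.19, did not pass (adjusted p = 0.112), though it did with ribosomal centring (0.66, adjusted p = 0.0362) and without replicate 2 of MSC_day28 (0.73, 0.0430). Chondrocytes minus day 0 MSCs was -0.13 ± 0.19 (adjusted p = 0.668).

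**Figure D2:**
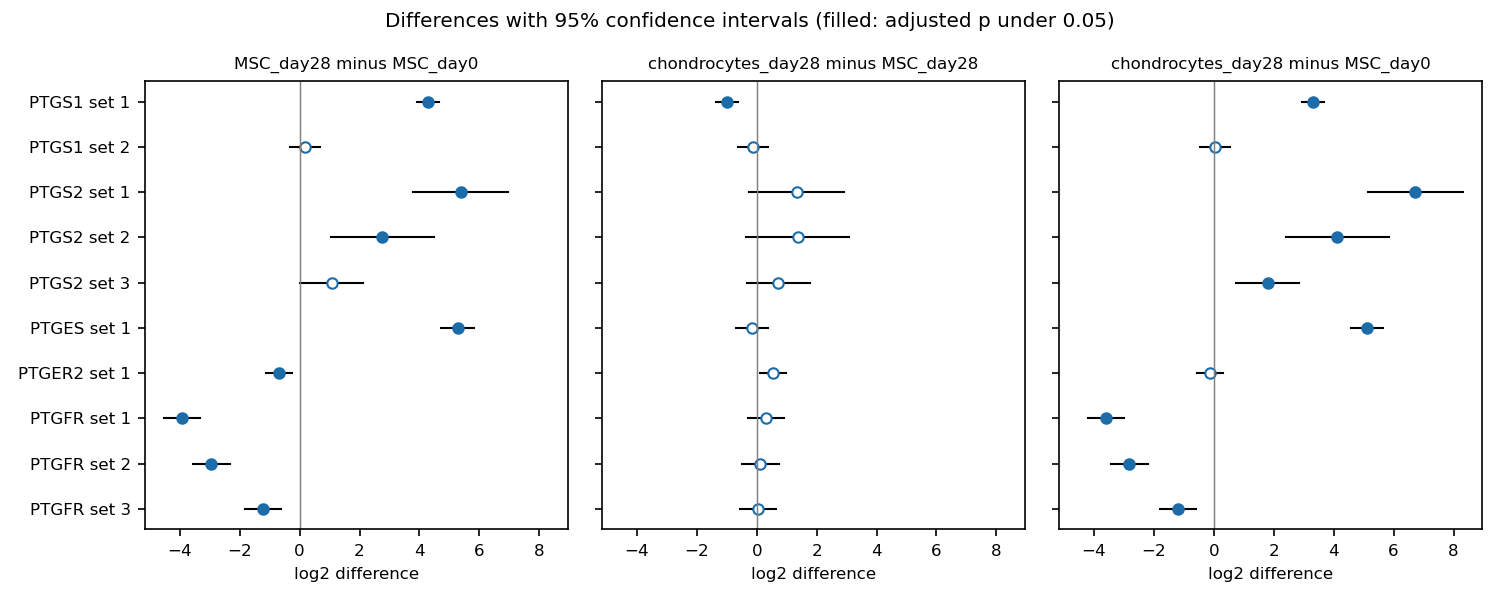
Log2 differences (horizontal axis) of the 10 probe sets in the 3 comparisons, named above the panels, with 95% confidence intervals from limma and filled points for an adjusted p under 0.05. The called sets of the synthesis genes lie right of 0 and those of PTGFR left of 0 in both comparisons against day 0, and only PTGS1 set 1 is called between the day 28 groups.

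Over the 10 probe sets, 4 rose and 4 fell in MSCs, where 30.2% of all probe sets were called (14.6% higher and 15.6% lower). In chondrocytes_day28 minus MSC_day0, 5 were higher and 3 lower, with 31% called over all probe sets (15.1% higher and 15.9% lower). In chondrocytes_day28 minus MSC_day28, 1 was lower and none was higher, against 10.3% over all probe sets (6.27% higher and 4.06% lower). With a count of 1 in 10 the day 28 comparison was thus close to the share over the whole array. Both comparisons against day 0 share the MSC_day0 arrays, and both involving day 28 MSCs share the MSC_day28 arrays, so their counts are not independent. Sets of 1 gene are not independent either. Over the 9 arrays the PTGFR sets correlated at 0.91 to 0.97 and the PTGS2 sets at 0.89 to 0.93. The 5 genes were also chosen with earlier results of these data known, so the counts are a description only.

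The balance of the cyclooxygenases was followed as PTGS2 minus PTGS1 on each array (set 1 of each), a value in which scaling between arrays cancels. It averaged 2.59 ± 0.68 in chondrocytes_day28, 0.27 ± 1.36 in MSC_day28 and -0.83 ± 0.89 in MSC_day0 (SD, n = 3 each). These are values of different probes, so only their differences between groups can be read. PTGS2 gained on PTGS1 by 2.32 in chondrocytes against day 28 MSCs, and by 4.30, 1.41 and 1.26 in donors 1, 2 and 3 (exact 2-sided permutation p = 0.1, adjusted p = 0.15 over 3 comparisons). Against day 0 MSCs the gain in chondrocytes was 3.42, with 2.97, 2.95 and 4.35 by donor (exact permutation p = 0.1, adjusted p = 0.15). The smallest p that 3 arrays against 3 allow is 0.1. In MSCs over 28 days the gain was 1.10 and the donors disagreed in sign, at -1.34, 1.54 and 3.09 (exact permutation p = 0.3). In donor 1 MSCs set 1 of PTGS1 thus rose by more than set 1 of PTGS2 (4.29 against 2.95). PTGS1 set 2 changed by -0.36 in that donor, so which gene rose more depends on the sets chosen.

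Beyond these 5 genes, 19 of 35 listed prostanoid genes had a named probe set, and the strongest change was in PTGER4, the other cyclic AMP-coupled receptor for prostaglandin E2. PTGER4 was at 2.73, 2.82 and 2.73 in chondrocytes_day28, 3.61, 3.95 and 2.94 in MSC_day28 and 7.93, 7.38 and 7.61 in MSC_day0. Every day 28 array was more than 3 units below every day 0 array. The difference was -4.14 ± 0.25 in MSCs (adjusted p = 9.12e-06) and -4.88 ± 0.25 for chondrocytes against day 0 MSCs (adjusted p = 2.61e-06). Chondrocytes minus day 28 MSCs was -0.74 ± 0.25 and did not pass (adjusted p = 0.0967). PTGER3, another prostaglandin E2 receptor, lay between 1.77 and 2.51 on all arrays and passed in no comparison.

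Over the 19 genes, 1 rose and 5 fell in MSCs, against 13.5% and 21% of all 9155 genes, and the median change was -0.13 against -0.11 over all genes. In chondrocytes_day28 minus MSC_day28, 1 was higher and 2 were lower (8.35% and 4.81% over all genes, medians -0.24 and -0.02). In chondrocytes_day28 minus MSC_day0, none was higher and 6 were lower (15.1% and 20.9%, medians -0.37 and -0.12). Unlike PTGES, the synthases of other prostaglandins were lower or not called in both comparisons against day 0. PTGDS, which makes prostaglandin D2, averaged 7.60 ± 0.67 in chondrocytes_day28, 6.89 ± 0.91 in MSC_day28 and 9.22 ± 0.52 in MSC_day0 (SD, n = 3). It fell in MSCs (-2.33 ± 0.49, adjusted p = 0.00600) and was lower in chondrocytes than in day 0 MSCs (-1.62 ± 0.49, adjusted p = 0.0322). PTGIS, prostacyclin synthase, was lower in chondrocytes than in day 0 MSCs by 1.84 (difference -1.84 ± 0.32, adjusted p = 0.00251), while its change in MSCs of -0.77 ± 0.32 did not pass (0.104).

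AKR1B1 and PRXL2B, enzymes that can form prostaglandin F, both fell in MSCs, by 1.04 and 1.19 (adjusted p = 0.00660 and 0.00232). PRXL2B was higher in chondrocytes than in day 28 MSCs (0.77 ± 0.21, adjusted p = 0.0470). PTGES3, the cytosolic prostaglandin E synthase that is also a chaperone partner, was bright and passed in no comparison, with a change of 0.16 ± 0.13 in MSCs. TBXAS1, thromboxane synthase, was at 2.06 to 2.61 on all arrays.

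Of 12 listed genes of phospholipid release only 5 were measured, and the phospholipase gene PLA2G4A was among those without a named probe set. Of the 5, 1 rose and 1 fell in MSCs (13.5% and 21% over all genes). The called ones were all lower in chondrocytes, 2 against day 28 MSCs and 3 against day 0 MSCs. Over all genes 4.81% and 20.9% were lower in these comparisons. PLA2G12A, a secreted phospholipase A2, rose in MSCs (0.68 ± 0.16, adjusted p = 0.0107) and was lower in chondrocytes than in day 28 MSCs (-1.16 ± 0.16, adjusted p = 0.00216). A second PLA2G12A set did not pass in MSCs (0.07 ± 0.30, 0.895), and was lower in chondrocytes in both comparisons. Against day 0 MSCs the brighter PLA2G12A set was lower in chondrocytes by 0.48 (difference -0.48, adjusted p = 0.0457). PLA2G15, a lysosomal phospholipase, fell in MSCs (-1.47 ± 0.24) and was lower in chondrocytes than in day 0 MSCs (-1.92 ± 0.24). PLAA, named as a phospholipase-activating protein, was lower in chondrocytes than in day 28 MSCs (-1.0 ± 0.15, adjusted p = 0.00336) and than in day 0 MSCs (-0.82 ± 0.15, adjusted p = 0.00313). ANXA1, the annexin known as a glucocorticoid-induced inhibitor of phospholipase A2, passed in no comparison. None of the 5 measured transport and inactivation genes passed in any comparison, and HPGD, the dehydrogenase that inactivates prostaglandins, was at 1.60 to 2.58 on all arrays. Some calls were lost in alternative settings, with adjusted p up to 0.417 for PLA2G12A and 0.115 for PTGDS (both chondrocytes against day 0 MSCs) and 0.146 for PRXL2B.

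**Figure D3:**
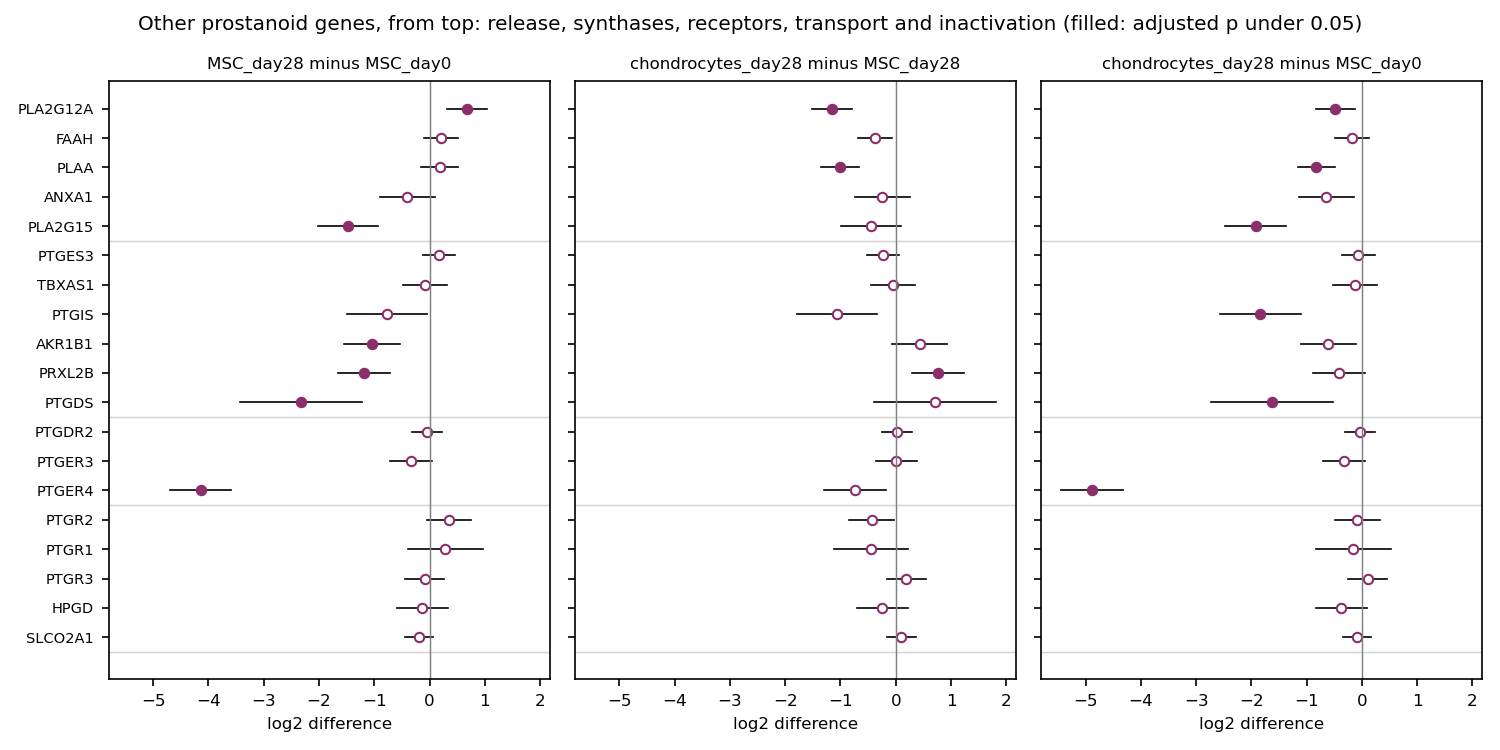
Log2 differences (horizontal axis) with 95% confidence intervals for the 19 other prostanoid genes, by role, in the 3 comparisons; filled points have an adjusted p under 0.05. PTGER4 lies furthest left in both comparisons against day 0, PTGDS is next in MSCs, and no transport or inactivation gene is filled.

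Among 20 measured genes of interleukin-1 and NF-kB signalling, the route best known for inducing PTGS2, 4 rose and 4 fell in MSCs, with a median of -0.08. Over all genes 13.5% rose and 21% fell, so the count was near the share over the array. IL1R1, the signalling receptor of interleukin-1, was at 9.52, 9.19 and 9.76 in chondrocytes_day28, 9.70, 9.53 and 9.83 in MSC_day28 and 7.10, 7.16 and 6.75 in MSC_day0. The rise in MSCs was 2.69 ± 0.19 (adjusted p = 1.90e-05), with no overlap between day 28 and day 0 arrays. The cytokine genes IL1A, IL1B and TNF did not pass in any comparison. NFKBIA, the inhibitor of NF-kB that NF-kB itself induces, fell by 2.27 in MSCs (difference -2.27 ± 0.41, adjusted p = 0.00267). EGR1, an immediate early factor, changed by -2.31 ± 0.31 (adjusted p = 0.000559) and IL6, a cytokine, by -3.15 ± 0.55 (0.00224). NOS2, inducible nitric oxide synthase, rose by 2.46 ± 0.50 (0.00524) by its set of highest mean, and its 3 other sets, from -0.09 to -0.03, did not pass. In MSC_day28 the NOS2 values of 5.19, 5.87 and 7.44 for donors 1, 2 and 3 had the same order as those of PTGS2 set 1. Replicate 3, the highest there for both genes, had low hybridisation controls. Both genes also shared an order of donors in chondrocytes_day28 (NOS2 at 7.01, 5.95 and 6.17) but not in MSC_day0 (3.73, 3.68 and 3.71). With 3 arrays per group such an order says little, and it was not tested.

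In chondrocytes_day28 minus MSC_day28, 3 of the 20 were higher and none was lower, against 8.35% and 4.81% over all genes. TNFAIP6, a hyaluronan-binding protein made in inflammation, was higher in chondrocytes by 3.27 ± 0.34 (adjusted p = 0.000510) and IL1RAP, the co-receptor of IL1R1, by 1.50 ± 0.30 (0.0142). These are the brightest sets, and the other IL1RAP sets, at 0.35 and -0.08, did not pass. IL6 was higher by 2.34 ± 0.55 (0.0263), a call that held in 12 of 17 alternatives. Among the settings that lost it was the fit without both arrays of low hybridisation controls (0.114). In chondrocytes_day28 minus MSC_day0, 4 were higher and 3 lower (15.1% and 20.9% over all genes), with TNFAIP6 at 4.65 ± 0.34 (2.19e-05), NOS2 at 2.67 ± 0.50 and IL1R1 at 2.49 ± 0.19. Other NOS2 sets, from -0.29 to -0.11, did not pass there. The medians of the last comparisons were 0.02 and -0.45.

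Of 14 genes that respond to cyclic AMP, the second messenger of PTGER2 and PTGER4, 7 were measured. NR4A1, a nuclear receptor induced early by many signals, was at 5.67, 5.41 and 5.57 in chondrocytes_day28, 4.54, 4.82 and 5.0 in MSC_day28 and 7.55, 6.84 and 7.48 in MSC_day0. It fell in MSCs by 2.50 (difference -2.50 ± 0.21, adjusted p = 5.47e-05) and was lower in chondrocytes than in day 0 MSCs (-1.74 ± 0.21, adjusted p = 0.000342). PPARGC1A, a coactivator of mitochondrial genes, rose by 1.86 ± 0.46 in MSCs (0.0137) and was higher in chondrocytes than in day 0 MSCs (2.55 ± 0.46, 0.00295), by its set of highest mean. Its 3 other sets did not pass. NR4A2 probe sets disagreed in sign: its brightest set changed by -1.86 ± 0.30 in MSCs (0.00164), and another set, chosen after its value was seen, by 3.09 ± 0.46 (0.000990). ATF3 was lower in chondrocytes than in day 0 MSCs (-2.44 ± 0.39, 0.00146). CREM was not called by its brightest set (0.23 ± 0.45 in MSCs, adjusted p = 0.754). Dimmer CREM sets, also chosen after their values were seen, rose in MSCs by 2.42 ± 0.31 (0.000420) and 0.99 ± 0.21 (0.00634). The first of these was also higher in chondrocytes than in day 0 MSCs (1.97 ± 0.31, 0.00132). By the brightest set of each gene, 1 of the 7 rose and 2 fell in MSCs (median -0.05), near the 13.5% and 21% over all genes. In chondrocytes_day28 minus MSC_day0 1 was higher and 4 were lower (median -0.68), where 15.1% and 20.9% of all genes were called. None was called between the day 28 groups (median 0.21).

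**Figure D4:**
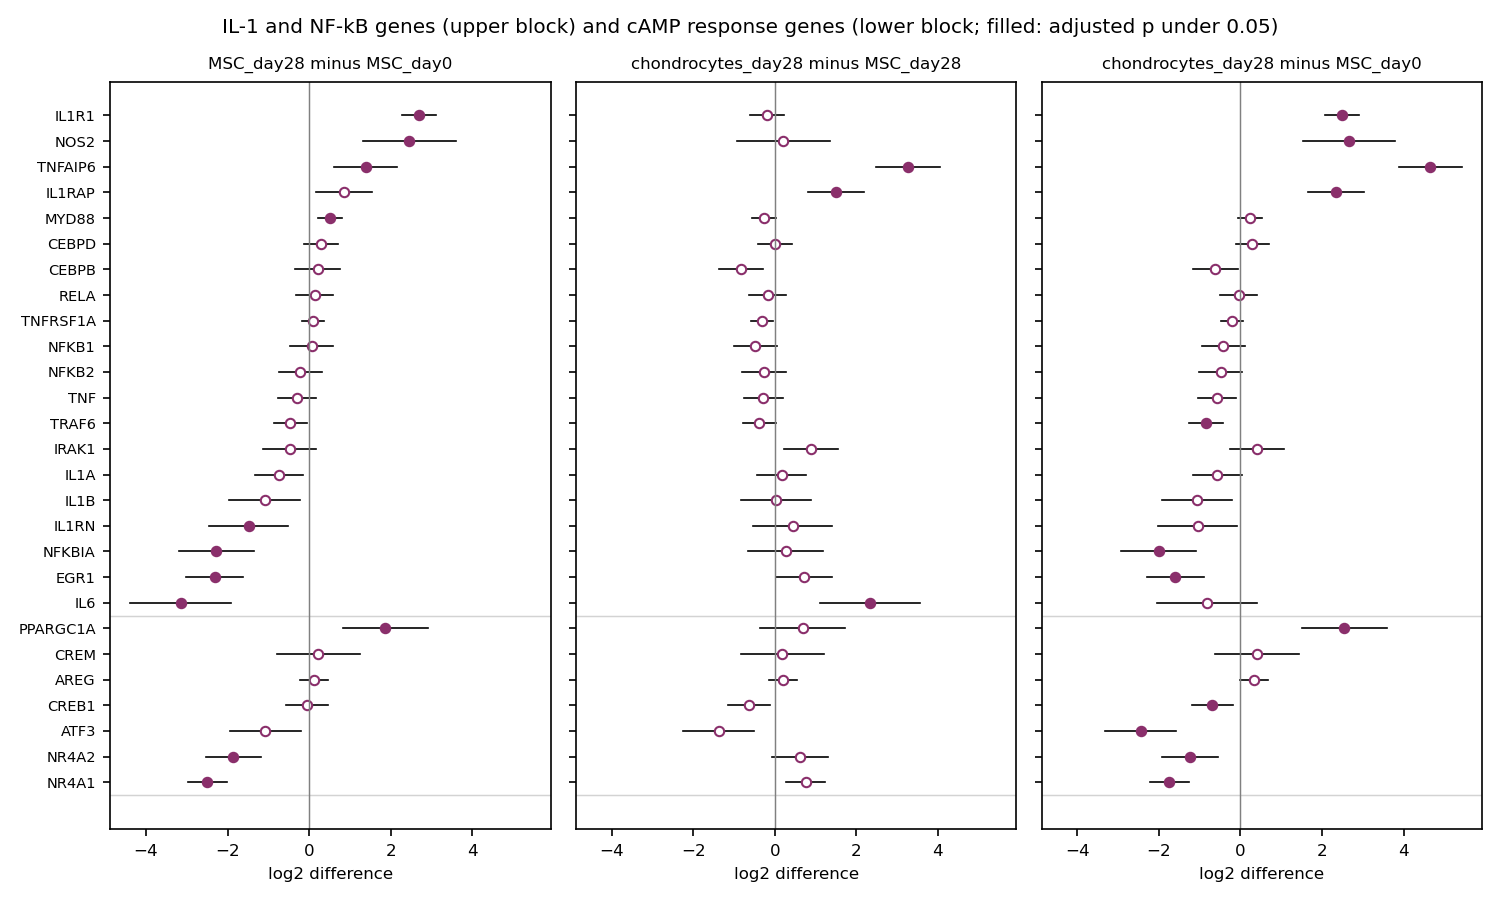
Log2 differences (horizontal axis) with 95% confidence intervals in the 3 comparisons for 20 genes of interleukin-1 and NF-kB signalling (upper block) and 7 cyclic AMP response genes (lower block), with filled points for an adjusted p under 0.05. IL1R1 and NOS2 lie right of 0 in both comparisons against day 0, NFKBIA and EGR1 lie left, and TNFAIP6 is furthest right between the day 28 groups.

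The leukotriene branch, which uses the same arachidonic acid through lipoxygenases, had a dim entry enzyme. ALOX5, which starts it, averaged 1.95, 1.79 and 2.00 in chondrocytes_day28, MSC_day28 and MSC_day0, and was not called. Of 7 measured genes on its list, 1 rose in MSCs and 1 was lower in chondrocytes than in day 28 MSCs. Over all genes these shares were 13.5% and 4.81%. In chondrocytes_day28 minus MSC_day0, 3 of the 7 were higher (15.1% over all genes). LTA4H, which makes leukotriene B4 and was at 7.73 to 9.37 on all arrays, rose in MSCs (0.65 ± 0.21, adjusted p = 0.0408). It was lower in chondrocytes than in day 28 MSCs (-1.07 ± 0.21, 0.0114). LTB4R, a receptor for leukotriene B4, was higher in chondrocytes than in day 0 MSCs (2.10 ± 0.50, 0.0119). So were ALOX12 (0.74 ± 0.19, 0.0166) and EPHX2 (1.93 ± 0.61, 0.0387) by their brightest sets, their other sets not passing. EPHX2 is an epoxide hydrolase that was on the same list but lies outside the leukotriene branch. ALOX12 was dim, at 2.50 to 3.04 in chondrocytes_day28 and 1.83 to 2.33 in MSC_day0. In alternative settings the adjusted p reached 0.118 for the rise of LTA4H, 0.126 for EPHX2 and 0.0664 for ALOX12. Of 7 measured RNA-binding genes that act on PTGS2 or similar AU-rich messages, the translational silencers TIA1 and TIAL1 rose in MSCs, by 1.33 ± 0.31 (0.0108) and 1.02 ± 0.13 (0.000394). Both were also higher in chondrocytes than in day 0 MSCs, at 1.17 and 0.58, and ZFP36L1 was lower there, at -0.50 (adjusted p = 0.0459). These were 2 of 7 higher and none lower in MSCs, against 13.5% and 21% over all genes. Against day 0 MSCs, chondrocytes had 2 higher and 1 lower, where 15.1% and 20.9% of all genes were called. The other TIA1 set did not pass, at 0.39 in MSCs (0.303) and 0.04 in chondrocytes against day 0 MSCs (0.933). Against day 0, the ZFP36L1 call held in 7 of 17 alternatives (adjusted p up to 0.379) and the TIA1 call in 14 of 16 (up to 0.0701). Other ZFP36L1 sets were also lower in chondrocytes than in day 0 MSCs, at -1.01 (0.0421) and -0.57 (0.0406). They were not followed in the alternatives. The stabilising factor ELAVL1 and the decay factor ZFP36 passed in no comparison.

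The genes most like each of the 5 were ranked by Pearson r over the 9 arrays, among 871 named genes with an SD of at least 1. Because the 3 groups differ strongly, such values mainly follow the group means, and they are a description without a test. For PTGS2 they were IL16 (0.98), EGLN3 (0.98) and ACYP2 (0.98), and IL16, which encodes a cytokine, was at 7.88 to 8.82 in chondrocytes_day28, 6.76 to 7.78 in MSC_day28 and 4.05 to 4.53 in MSC_day0. For PTGES they were PPP4R4, SORL1 and ZNF385B, each at 0.99 or above. For PTGS1 they were DANCR (0.99), MST1 (0.99) and LDLRAD4 (0.98), and for PTGFR they were TCIM (0.99), PSMB9 (0.98) and EEF1A2 (0.98). For PTGER2 they were NSDHL (0.93), TUBB (0.93) and CTSH (0.91).

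Markers of other cells were measured beside these results, since blood and endothelial cells also use prostaglandin enzymes. Of 14 blood cell markers 12 were measured, with a mean log2 level per array of 3.43 to 3.57 in chondrocytes_day28, 2.74 to 2.84 in MSC_day28 and 2.74 to 3.98 in MSC_day0. PTPRC, the common leukocyte antigen, was at 2.05 to 2.78 on all 9 arrays and ITGAM at 1.67 to 1.75, near the bottom of the range. TYROBP was at 5.43, 5.92 and 3.22 and AIF1 at 4.91, 5.28 and 2.45 in MSC_day0, and in replicates 1 and 2 both were above all day 28 values. CSF1R was highest in chondrocytes_day28 (6.97 to 8.17), as was CD14 (7.02 to 7.60). KIT was at 5.51 to 6.48 in chondrocytes_day28, 1.45 to 3.36 in MSC_day28 and 3.64 to 6.21 in MSC_day0. Of the 12 blood markers, 1 rose and 4 fell in MSCs (13.5% and 21% over all genes). Between the day 28 groups 2 were higher in chondrocytes and none lower (8.35% and 4.81%). Against day 0 MSCs, chondrocytes had 2 higher and 3 lower (15.1% and 20.9%). Of 8 endothelial markers 7 were measured, with means of 3.10 to 3.27, 2.98 to 3.17 and 2.78 to 2.96 in chondrocytes_day28, MSC_day28 and MSC_day0. The defining genes PECAM1, CDH5 and VWF stayed between 2.13 and 2.82. TEK, the angiopoietin receptor, moved with the synthesis genes, at 6.14 to 6.60 in chondrocytes_day28, 6.01 to 7.04 in MSC_day28 and 3.78 to 4.37 in MSC_day0. It rose in MSCs by 2.22 ± 0.29 (adjusted p = 0.000496), as the only endothelial marker called there. That was 1 of 7, near the 13.5% of all genes that rose. TIE1, a related receptor, was higher in chondrocytes than in day 28 MSCs (0.93 ± 0.23, 0.0309) and than in day 0 MSCs (0.73 ± 0.23, 0.0369). In these comparisons 1 and 2 of the 7 endothelial markers were higher, against 8.35% and 15.1% over all genes. The part of these cells in the prostaglandin results was not tested.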

How the data were processed

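Total RNA of 9 bovine samples was amplified from the poly(A) tail, labelled with biotin and hybridised to 1 array each, per the labels' protocols. The authors deposited log2 values from RMA, which the submitters' processing notes name and which corrects background, equalises the intensity distributions of the arrays and summarises each probe set. Its software version is not given in the sources used here. After this step a shift shared by most transcripts is lost, and values near the bottom of the scale understate differences. Of 24128 probe sets 112 controls were left out. Symbols are those of the platform table, brought up to date with the RefSeq gene table of assembly ARS-UCD2.0.

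All 24016 probe sets entered 1 model of 3 group means (lmFit and eBayes of limma 3.58.1, under R 4.3.3), with Benjamini-Hochberg adjustment in each comparison. The fit was checked on simulated data. Each probe set of the 5 genes was reported. Other genes were represented by their probe set of highest mean. Named were all prostanoid genes called, the 3 largest called differences of each signalling list and the 3 most similar genes per member. Genes named beside these for context were chosen after their values were seen. The members and lists were chosen with earlier results of these data known.

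Same-numbered arrays came from the same calf. Their deviations from the group means correlated at 0.108 to 0.412, against -0.303 to 0.152 between donors. The 3 deviations in a group sum to 0, so higher values within donors go with lower values between donors. Both arrays with low hybridisation controls came from donor 3, where calf and hybridisation cannot be told apart. The donor block, scalings, filters, variance settings and arrays left out were the alternatives. Because the donors are 3 animals, their number limits the precision.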

Additional observations from a re-analysis of the deposited data

How the results depend on the processing

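Of 17 called values of the 5 genes, 14 kept their call and direction under all alternatives that could give a value, and the 3 others are described above. The exceptions were the MSC changes of PTGER2 and PTGS2 set 2 and the chondrocyte minus day 0 difference of PTGS2 set 3. With the donor as a replicate block the calls of the 5 genes were 8 in MSC_day28 minus MSC_day0, 1 between the day 28 groups and 8 in chondrocytes_day28 minus MSC_day0, and no call of theirs changed. Among the other named genes the block ended 1 call, PLA2G12A in chondrocytes_day28 minus MSC_day0 (adjusted p = 0.0519). Their calls ended in at least 1 alternative for 12 of 40 values: PLA2G12A, PLAA, PTGDS, EPHX2, ALOX12, TIA1 and ZFP36L1 in chondrocytes_day28 minus MSC_day0, IL6, IL1RAP and PRXL2B in chondrocytes_day28 minus MSC_day28, and LTA4H and PPARGC1A in MSC_day28 minus MSC_day0.

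Values without a call changed sign as follows. With centring on the array median, PTGS1 set 2 was at -0.0782 in chondrocytes_day28 minus MSC_day0 and PTGFR set 3 at -0.0284 in chondrocytes_day28 minus MSC_day28. Ribosomal centring moved the median probe set by 0.19 in MSC_day28 minus MSC_day0, 0.11 between the day 28 groups and 0.30 in chondrocytes_day28 minus MSC_day0, where PTGER2 was then at 0.17. Median centring moved the last by -0.12. With 1 array left out, PTGS1 set 2 ranged from -0.0431 to 0.0907 in chondrocytes_day28 minus MSC_day0, from -0.0954 to 0.38 in MSC_day28 minus MSC_day0 and from -0.34 to 0.14 between the day 28 groups. Between those groups PTGFR set 2 ranged from -0.0201 to 0.31 and PTGFR set 3 from -0.0538 to 0.0882. The signs turned without replicate 2 of MSC_day28, except in the first, where it was without replicate 3 of MSC_day0.

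The filter at the median signal left 3 probe sets of the 5 genes called in each comparison against day 0, as it removed the dim sets. Between the day 28 groups 2 were called with ribosomal centring. Over all probe sets the split into higher and lower calls followed the scaling: 3512 and 3744 in MSC_day28 minus MSC_day0 (4352 and 2433 with ribosomal centring), 1506 and 976 between the day 28 groups (1625 and 586 with ribosomal centring, 1344 and 1359 with median centring), and 3622 and 3823 in chondrocytes_day28 minus MSC_day0 (5360 and 1969, and 3110 and 5255). With 1 array left out, the counts for the 5 genes ranged from 6 to 7 in MSC_day28 minus MSC_day0, 1 to 2 in chondrocytes_day28 minus MSC_day28 (2 without replicate 2 of MSC_day28) and 7 to 8 in chondrocytes_day28 minus MSC_day0. Over all probe sets the ranges were 5747 to 6719, 1356 to 2598 and 5640 to 6521, the 1356 without replicate 2 of chondrocytes_day28. Over the prostanoid genes they were 6 to 7, 2 to 4 and 4 to 5. The gain of PTGS2 on PTGS1 ranged from 0.46 to 1.81, 1.61 to 2.96 and 3.06 to 3.92, with the lowest MSC value without replicate 3 of MSC_day28. The causes of these changes were not tested.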
